A study of Mus musculus with 6 samples.

Results

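Endothelial cells line the blood vessels, and 37 genes that mark these cells or act in early vessel formation were measured in the heads of E8.5 mouse embryos lacking the histone demethylase Jarid1b (Kdm5b). The genes were given as a list of names, drawn up with earlier results of these data known, and were found as the rows of the expression table whose array annotation gave exactly 1 gene symbol equal to a listed name. All 37 listed genes were found, each with 1 probe set, among 19938 genes measured by 21789 probe sets with 1 symbol. A listed gene was also named in 1 row with more than 1 symbol, which was left out. Knockouts were homozygous for a constitutive Jarid1b deletion, made by constitutive Cre excision of an exon flanked by loxP sites. Heterozygotes carried 1 intact Jarid1b allele and served as the controls, so no group had both alleles intact. Both groups were C57BL/6 embryos at embryonic day 8.5, and each of the 6 samples was RNA from 4 pooled heads, with 3 pools per genotype hybridised to Affymetrix mouse Gene 1.0 ST arrays. Heads at this age hold endothelium beside neural tissue and mesenchyme, and in whole tissue fewer cells of a type and less RNA per cell cannot be told apart. With 6 pools, a p-value gauges only how the pools varied among themselves.

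The first vessels of the embryo form by vasculogenesis, in which mesodermal progenitors take on an endothelial identity under the ETS factor Etv2 and signals through the VEGF receptor Kdr. The tubes then sprout and are remodelled through VEGF, angiopoietin-Tie, Notch and BMP signalling, while junction proteins such as VE-cadherin (Cdh5) hold the cells together. Jarid1b removes methyl groups from lysine 4 of histone H3, a mark found at the promoters of active genes.

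Values are log2 of the normalised hybridisation intensity, and fold changes are knockout over heterozygote, so a positive value was higher in knockouts. Kdm5b itself had log2 intensities of 7.63, 7.47 and 7.71 in knockouts, against 9.17, 9.12 and 9.16 in heterozygotes. Its log2 fold change was -1.55 ± 0.07 (SE, limma, Benjamini-Hochberg adjusted p = 6.29e-04), and it was the only probe set of 21789 to pass an adjusted p of 0.05 (0.00459%). The median intensity of a pool lay between 60.4 and 62.9 in knockouts and between 58.1 and 61.5 in heterozygotes. Knockout replicate 2 and heterozygote replicate 2 had low Xist, at 3.74 and 4.22, whereas the other 4 pools lay between 8.82 and 10.17, so the make-up by sex was not the same in every pool. Uty, a Y-linked gene, had 7.20, 7.48 and 7.17 in knockouts, against 5.77, 7.60 and 5.77 in heterozygotes. Signal from males was thus high in all 3 knockout pools but in only 1 of 3 heterozygote pools, and its part in the comparisons between genotypes was not tested.

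None of the 37 endothelial genes passed an adjusted p of 0.05, with adjusted p-values from 0.358 to 0.998 (limma). Every member's 95% confidence interval lay inside a 1.5-fold difference in either direction, the widest bounds being -0.46 and 0.47 on the log2 scale. At an unadjusted p of 0.05, 2 members were higher in knockouts, Robo4 and Vwf, where 5.97% of all probe sets were, and 2 were lower, Aplnr and Etv2, where 4.66% were. The 4 genes made up 10.8% of the members, against 10.6% of all probe sets. The counts moved with single pools. Without knockout replicate 1, 4 members were higher, Cldn5, Plvap, Robo4 and Vwf, against 1383 of all 21789 probe sets. The lower count was 5 without knockout replicate 2, namely Pecam1, Icam2, Tek, Eng and Ecscr, against 964 of all 21789 probe sets. Without knockout replicate 3 the lower count was 1 (779). It was 0 without heterozygote replicate 2 (664) and 1 without heterozygote replicate 3 (619). The median log2 fold change of the members was -0.04, against -0.00 for all probe sets, and 13 of 37 members were above 0, against 49.7% of all probe sets. The other 24 were below 0, a number that became 20 under quantile and 21 under cyclic loess normalization. Without knockout replicate 3 the tally was 20 above and 17 below 0, and without knockout replicate 2 it was 9 above and 28 below. That median was -0.08 without knockout replicate 2 and 0.02 without knockout replicate 3. The share above 0 also varied with brightness. Among the 7263 dimmest probe sets 5052 lay above 0, among the 7263 of middle brightness 3620 and among the 7263 brightest 2161. Of the members in these classes, 1 of 2, 10 of 26 and 2 of 9 did.

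**Figure D1:**
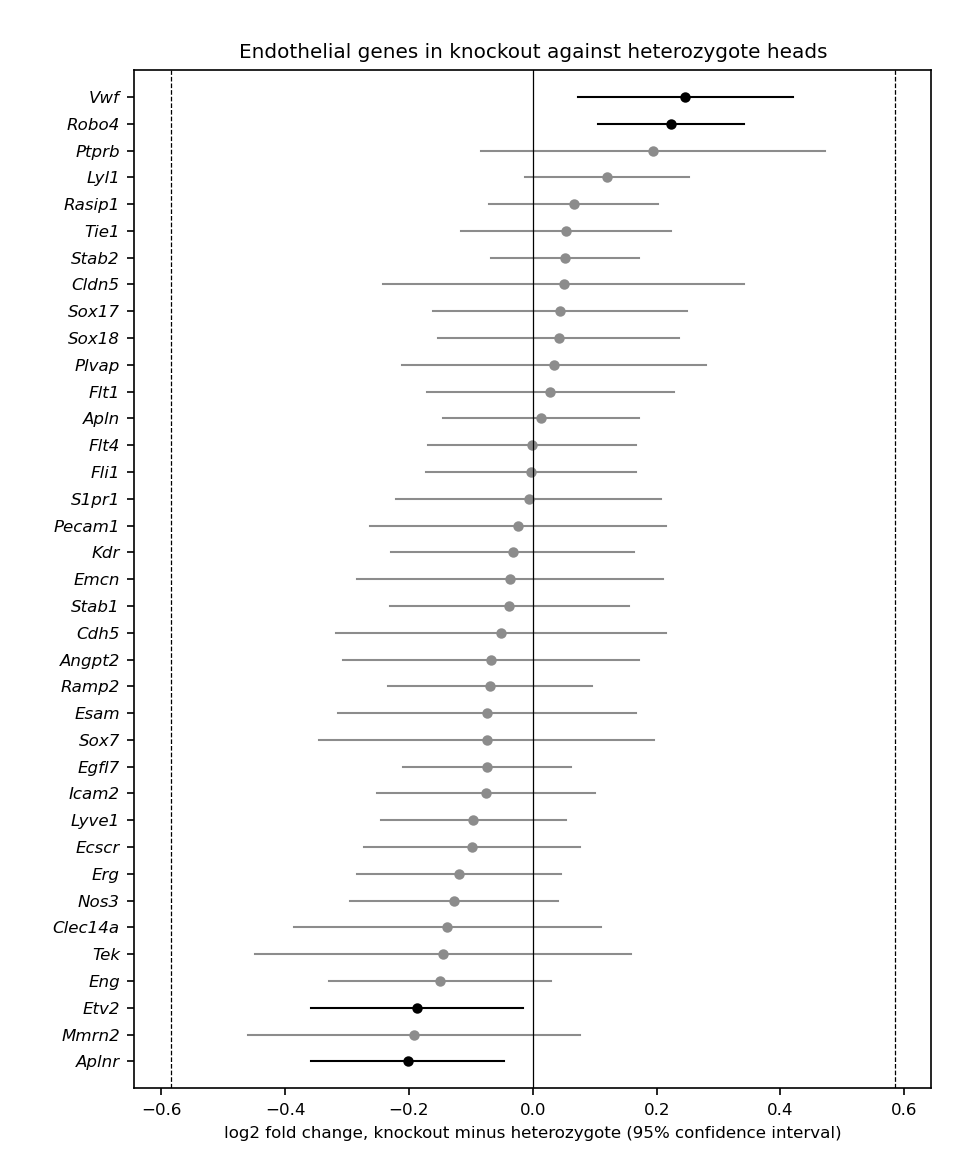
Log2 fold change, knockout over heterozygote, of each of the 37 endothelial genes, ordered by its value, with 95% confidence intervals from limma (3 pools per genotype). Dashed lines mark a 1.5-fold difference, and black marks the 4 genes with an unadjusted p under 0.05, Robo4, Vwf, Aplnr and Etv2, none of which passed after adjustment. Every interval lies inside the dashed lines.

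Endothelial enhancers and promoters are known for binding ETS factors, which recognise a core of GGAA. RefSeq promoter windows, from 250 bases before to 50 after the annotated start (GRCm38.p6), were at hand for 18 of the 37 members, in 22 windows. The motif AGGAAG, searched on both strands, was in 13 of the 22 (59.1%), against 35.4% of all 32851 windows of this length. CGGAAG was in 3 (13.6%), against 16.9%. The letters AGATAA, which erythroid and endothelial zinc finger factors recognise, were in 2 (9.09%), against 11.2%. The Sox motif ACAATG was in 1 (4.55%), against 12.6%, and the Sox motif ACAAAG in 4 (18.2%), against 18.7%. The forkhead motif GTAAACA was in 0, against 3.65%. A match is a description of these letters and not a binding site. Of the 4 members with an unadjusted p under 0.05, Robo4, an endothelial guidance receptor, and Etv2, itself an ETS factor, had a window, and these are shown 5′ to 3′ on the gene's strand, with the single match to AGGAAG in capitals. Each match lies on the gene's strand, its first base 49 bases upstream of the start in Robo4 and 207 bases upstream in Etv2. The Robo4 window is chr9:37401722-37402021 on the plus strand and the Etv2 window chr7:30635803-30636102 on the minus strand.
Robo4: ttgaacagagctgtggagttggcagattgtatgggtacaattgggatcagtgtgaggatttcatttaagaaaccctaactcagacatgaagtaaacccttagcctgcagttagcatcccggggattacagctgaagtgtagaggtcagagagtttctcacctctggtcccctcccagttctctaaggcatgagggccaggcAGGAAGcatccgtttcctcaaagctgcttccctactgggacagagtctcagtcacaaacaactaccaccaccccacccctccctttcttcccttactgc
Etv2: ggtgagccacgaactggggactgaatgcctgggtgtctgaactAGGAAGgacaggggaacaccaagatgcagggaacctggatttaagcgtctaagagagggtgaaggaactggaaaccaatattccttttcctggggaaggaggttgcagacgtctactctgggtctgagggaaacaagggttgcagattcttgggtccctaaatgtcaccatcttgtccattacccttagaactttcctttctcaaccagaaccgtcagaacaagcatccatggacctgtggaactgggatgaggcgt

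The defining endothelial markers Pecam1, Cdh5, Kdr, Tek, Tie1 and Etv2 were all measured outside the 7263 dimmest probe sets, which held 2 of the 37 members, Robo4 and Clec14a. None of the 7 transcripts for junction and surface proteins had an unadjusted p under 0.05. Without knockout replicate 2, Pecam1 and Icam2 passed it, both lower in knockouts, and without knockout replicate 1, Cldn5 did, higher in knockouts. Cdh5, the cadherin of endothelial junctions, had 8.78, 9.07 and 8.60 in knockouts, against 8.80, 8.95 and 8.86 in heterozygotes. Its mean was 8.82 ± 0.24 in knockouts and 8.87 ± 0.08 in heterozygotes (SD, n = 3 each), a log2 fold change of -0.05 with a 95% interval from -0.32 to 0.21. Pecam1, the adhesion molecule CD31, had 6.33, 6.69 and 6.30 in knockouts, against 6.47, 6.42 and 6.51 in heterozygotes. For both genes the heterozygotes lay inside the range of the knockouts, with knockout replicate 2 the highest and replicate 3 the lowest of the 6 pools. Pecam1 differed by -0.02, with an interval from -0.26 to 0.22. The other 5 of this group lay between -0.14 for Clec14a, a lectin-domain protein of the endothelial surface, and 0.05 for Cldn5, the claudin of brain endothelial tight junctions. Between them were Icam2, an adhesion molecule for leukocytes, at -0.08, Esam, a tight-junction adhesion molecule, at -0.07, and Emcn, the sialomucin endomucin, at -0.04.

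The 3 receptors for the VEGF family, which drive endothelial growth and sprouting, differed least of all role groups in their median, at -0.00. Kdr (VEGFR2), the main signalling receptor for VEGF-A, had 7.77, 7.67 and 7.47 in knockouts, against 7.70, 7.71 and 7.59 in heterozygotes. The groups overlapped, with a log2 fold change of -0.03 and a 95% interval from -0.23 to 0.16. Flt1 (VEGFR1), which can act as a decoy for VEGF-A, was at 0.03 and Flt4 (VEGFR3), the receptor for VEGF-C, at -0.00, each with its groups overlapping.

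The angiopoietin-Tie system, which stabilises and remodels young vessels, showed its members on both sides of 0. Tek (Tie2), the angiopoietin receptor, had 7.12, 7.57 and 7.07 in knockouts, against 7.32, 7.51 and 7.37 in heterozygotes, a log2 fold change of -0.15 ± 0.13 (SE, limma adjusted p = 0.719). Without knockout replicate 2 the log2 fold change of Tek was -0.30, with an unadjusted p of 0.006 and an adjusted p of 0.387 in limma. Tie1, its related coreceptor, had 6.73, 6.63 and 6.50 in knockouts, against 6.64, 6.53 and 6.52 in heterozygotes. It differed by 0.05, with an interval from -0.12 to 0.22. Ptprb (VE-PTP), the phosphatase that dampens Tek signalling, had 5.79, 5.63 and 5.50 in knockouts, against 5.63, 5.50 and 5.20 in heterozygotes. All 3 genes had overlapping groups. The log2 fold change of Ptprb was 0.19, behind Vwf and Robo4 among the members, with an interval from -0.08 to 0.47 that was also among the widest, heterozygote replicate 3 lying below the rest. Angpt2, a ligand that mostly antagonises Tek, was at -0.07.

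Among the transcription factors, Etv2 stood lowest. Etv2, the ETS factor that specifies endothelial and blood progenitors and is switched off as they mature, had 7.54, 7.39 and 7.32 in knockouts, against 7.55, 7.69 and 7.57 in heterozygotes. The groups did not overlap, but knockout replicate 1 lay just under the lowest heterozygote. The means were 7.41 ± 0.11 in knockouts and 7.60 ± 0.08 in heterozygotes (SD, n = 3 each), a log2 fold change of -0.19 ± 0.07 (SE), or 0.878-fold, with an unadjusted p of 0.036 and an adjusted p of 0.440 in limma. Erg, an ETS factor that maintains endothelial identity, had 6.98, 6.98 and 6.77 in knockouts, against 7.03, 7.05 and 7.01 in heterozygotes. Its groups did not overlap either, at a log2 fold change of -0.12 (95% interval -0.28 to 0.05). Lyl1, a basic helix-loop-helix factor of blood and endothelium, had 6.84, 6.74 and 6.86 in knockouts, against 6.66, 6.72 and 6.71 in heterozygotes. Every knockout lay above every heterozygote, with a log2 fold change of 0.12 (95% interval -0.01 to 0.25). Fli1, a further ETS factor, was at -0.00, and the SoxF factors Sox7, Sox17 and Sox18, which act in arterial and lymphatic differentiation, were at -0.07, 0.04 and 0.04.

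Aplnr had the lowest log2 fold change of the 37 genes. This receptor for apelin and Elabela guides angioblast and cardiac mesoderm movement in zebrafish and marks venous endothelium in the mouse. It had 9.77, 9.64 and 9.73 in knockouts, against 9.87, 10.02 and 9.86 in heterozygotes, without overlap. The means were 9.71 ± 0.07 in knockouts and 9.91 ± 0.09 in heterozygotes (SD, n = 3 each), a log2 fold change of -0.20 ± 0.07 (SE), or 0.869-fold, with an unadjusted p of 0.018 and an adjusted p of 0.413 in limma. Its ligand Apln, an X-linked gene made by the tips of sprouts, was at 0.01. S1pr1, the sphingosine-1-phosphate receptor that restrains sprouting, was at -0.01. Ramp2, the partner that makes the calcitonin receptor-like receptor responsive to adrenomedullin, was at -0.07.

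Guidance, coreceptor and matrix genes held the member with the smallest p. Robo4, an endothelial roundabout receptor that stabilises vessels, had 5.31, 5.28 and 5.26 in knockouts, against 5.08, 5.03 and 5.07 in heterozygotes. Every knockout lay above every heterozygote and the pools of each genotype lay close together, with means of 5.28 ± 0.02 in knockouts and 5.06 ± 0.03 in heterozygotes (SD, n = 3 each). The log2 fold change was 0.22 ± 0.05 (SE), or 1.17-fold, with an unadjusted p of 0.002 and an adjusted p of 0.358 in limma. Robo4 was among the 7263 dimmest probe sets, whose median log2 fold change was 0.06. The 7263 brightest, with Aplnr among them, had a median of -0.04.

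Mmrn2, an extracellular matrix protein that binds Clec14a, and Eng (endoglin), the coreceptor for BMP9 and TGF-beta, were on the other side of 0. Mmrn2 had 5.68, 6.10 and 6.08 in knockouts, against 6.07, 6.13 and 6.23 in heterozygotes, a log2 fold change of -0.19 (95% interval -0.46 to 0.08). Knockout replicate 1 alone lay far below the other pools. Eng had 7.15, 7.41 and 7.17 in knockouts, against 7.39, 7.39 and 7.41 in heterozygotes, a log2 fold change of -0.15 (95% interval -0.33 to 0.03). Here knockout replicate 2 was the highest of the 6 pools, and the other 2 knockouts were the lowest. Nos3, the endothelial nitric oxide synthase, was at -0.13, Ecscr, a surface regulator of endothelial chemotaxis, at -0.10, Egfl7, a secreted factor of vessel tube formation, at -0.07, and Rasip1, a Ras-interacting protein needed for lumen formation, at 0.07.

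Of the genes of mature or specialised endothelium, Vwf had the highest log2 fold change of the 37. Vwf, the platelet-adhesive glycoprotein stored by endothelial cells and megakaryocytes, had 6.17, 5.90 and 6.03 in knockouts, against 5.74, 5.82 and 5.80 in heterozygotes. Every knockout lay above every heterozygote. The means were 6.03 ± 0.13 in knockouts and 5.79 ± 0.04 in heterozygotes (SD, n = 3 each), a log2 fold change of 0.25 ± 0.07 (SE), or 1.19-fold, with an unadjusted p of 0.011 and an adjusted p of 0.399 in limma. Stab2, a scavenger receptor of sinusoidal endothelium, had 5.50, 5.45 and 5.42 in knockouts, against 5.41, 5.39 and 5.42 in heterozygotes, without overlap. Its log2 fold change was only 0.05 and became -0.00 under quantile normalization. Plvap, the protein of fenestral diaphragms, was at 0.03, Stab1, a related scavenger receptor, at -0.04, and Lyve1, the hyaluronan receptor of lymphatic endothelium, at -0.10.

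In all, groups did not overlap for 4 members higher in knockouts (Vwf, Robo4, Lyl1 and Stab2), where 8.03% of all probe sets were, and for 3 lower (Aplnr, Etv2 and Erg), where 9.03% were. The 7 genes were 18.9% of the members, against 17.1% of all probe sets. With 3 pools per genotype an exact two-sided permutation test cannot go below p = 0.1, the value for each of these 7. Leaving out a pool makes separation easier for every gene, and it did so unevenly here. Without knockout replicate 3, 9 members were higher without overlap (12.7% of all probe sets). The lower count was 12 without knockout replicate 2 (14.9%), 5 without heterozygote replicate 1 (15.5%) and 5 without heterozygote replicate 2 (12.7%).

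**Figure D2:**
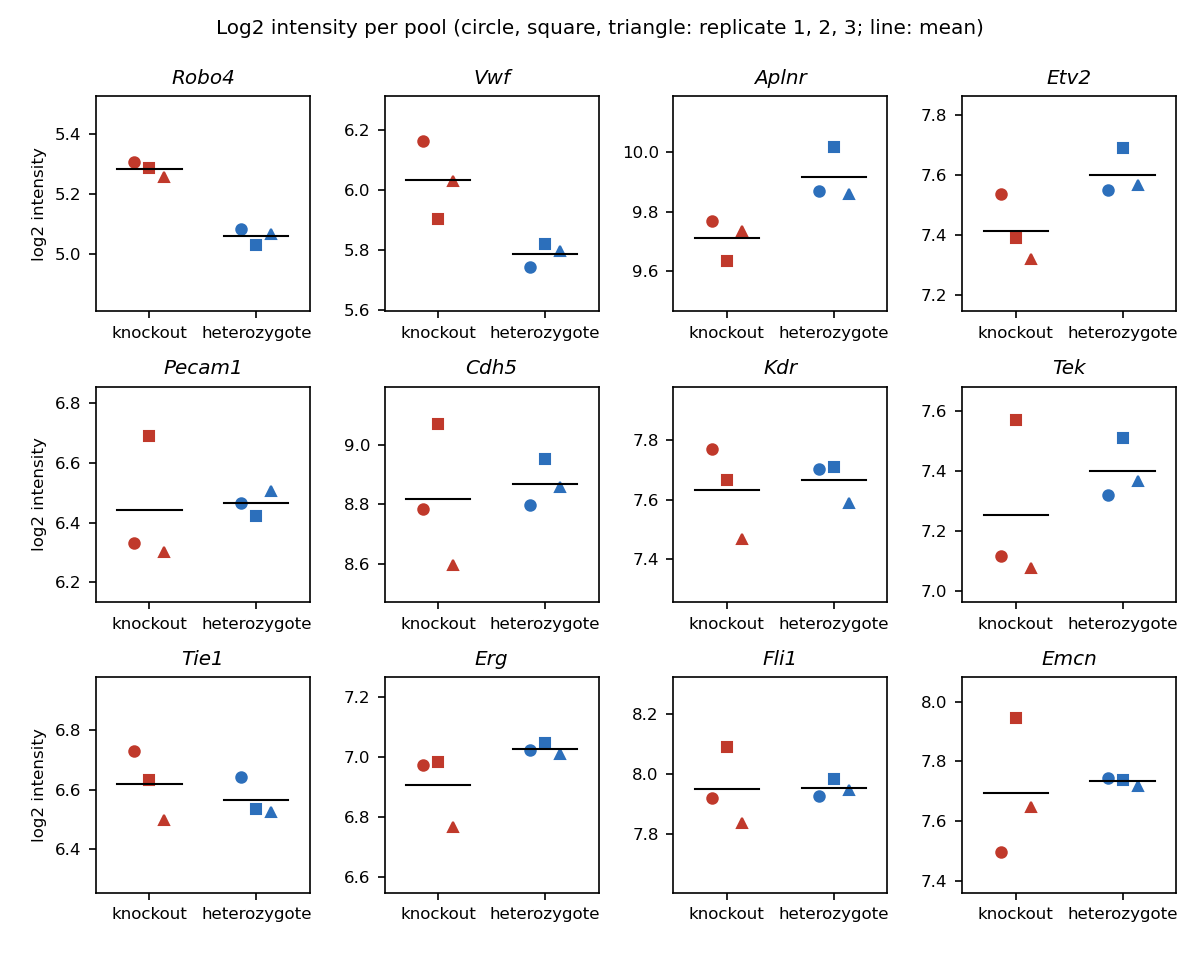
Log2 intensity in each pool for 12 endothelial genes, knockouts (red) left of heterozygotes (blue), with circles, squares and triangles for replicates 1, 2 and 3 and a line at the mean of each genotype. Robo4 and Vwf show every knockout above every heterozygote and Aplnr and Etv2 every knockout below, while Cdh5, Pecam1, Kdr, Tek and Tie1 overlap.

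For most members the knockout pools were more scattered than the heterozygote pools. The SD among knockouts exceeded that among heterozygotes for 32 of 37 members, against 57.4% of all probe sets, and was over 2 times as large for 22 of 37, against 26.3%. The median SD of the members was 0.14 in knockouts and 0.06 in heterozygotes on the log2 scale, against 0.09 in knockouts and 0.07 in heterozygotes over all probe sets. Tek had the widest knockouts, at an SD of 0.27 in knockouts and 0.10 in heterozygotes, and Emcn had 0.23 in knockouts and 0.02 in heterozygotes. The reverse, an SD over 2 times as large in heterozygotes, held for 1 member against 16.5% of all probe sets. That member was Sox17, at 0.05 in knockouts and 0.17 in heterozygotes. Ptprb had 0.15 in knockouts and 0.22 in heterozygotes. These counts rest on an SD of 3 values each and the members share the same 6 pools, so they are a description with no test. With 1 knockout pool left out, the count of members with the larger SD in knockouts was 27 without replicate 1 (45.8% of all probe sets), 26 without replicate 2 (49.8%) and 21 without replicate 3 (48.1%).

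**Figure D3:**
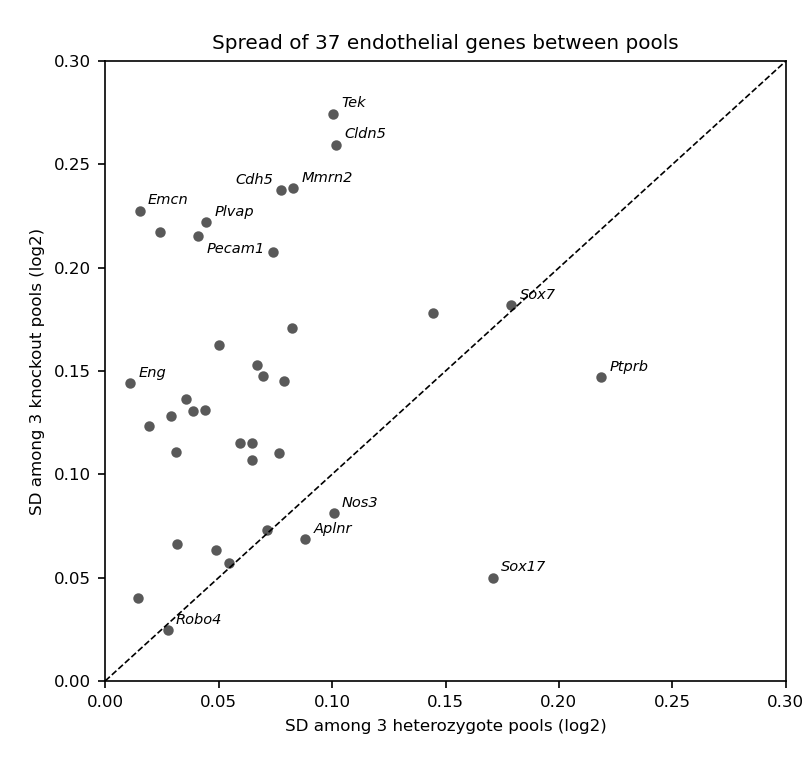
SD of log2 intensity among the 3 knockout pools (vertical axis) against the SD among the 3 heterozygote pools (horizontal axis) for each of the 37 endothelial genes, with the line of equality dashed. Of the 37 points, 32 lie above the line, with Tek and Cldn5 highest and Sox17 and Ptprb farthest below it.

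Knockout replicates 2 and 3 stood at opposite ends. The median deviation of the members from their own mean over the 6 pools was 0.01, 0.07 and -0.10 in knockout replicates 1, 2 and 3, against 0.01, 0.02 and 0.01 in heterozygote replicates 1, 2 and 3. Knockout replicate 3 was the lowest pool for 19 of 37 members, against 20.6% of all probe sets, and replicate 2 the highest for 12, against 15.4%. Replicate 1 was the highest for 12 as well, against 18.6%, and the lowest for 8, against 17.9%. Replicate 2 exceeded replicate 3 for 30 of 37 members, against 50.1% of all probe sets, by a median of 0.14 on the log2 scale against 0.00. Pecam1, Cdh5, Icam2, Tek, Fli1, Sox18 and Ecscr were both highest in replicate 2 and lowest in replicate 3, an order that 2.87% of all probe sets had. The 66 other genes of the vascular pathways had median deviations of 0.01, 0.04 and -0.06 in knockout replicates 1, 2 and 3, against -0.00, 0.02 and -0.01 in heterozygote replicates 1, 2 and 3. For these genes, too, knockout replicate 2 was the highest pool and replicate 3 the lowest.

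**Figure D4:**
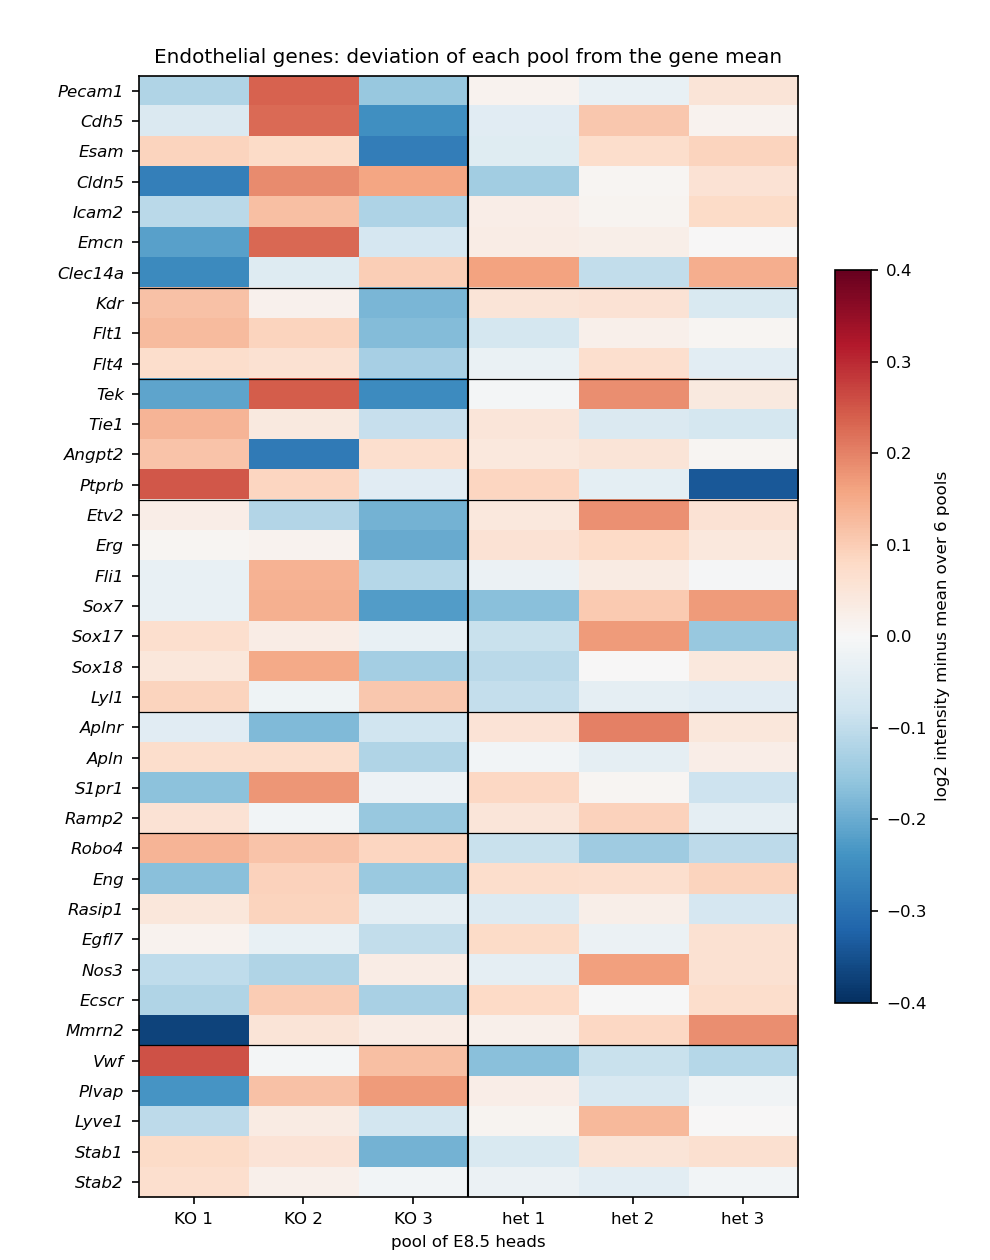
Deviation of each pool's log2 intensity from the gene's mean over 6 pools, for the 37 endothelial genes (rows, by role group) in knockout (left) and heterozygote (right) pools. In KO 1, 2 and 3, 20, 28 and 9 of 37 genes lie above their mean (red), against 19, 25 and 23 in het 1, 2 and 3. The 3 heterozygote columns are mostly paler, with Ptprb in het 3 an exception.

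Among the members, those that moved most closely with Cdh5 across the 6 pools were Fli1 (Pearson r = 0.98), Tek (0.93), Pecam1 (0.85), Sox18, Icam2 and Sox7 (0.82 each) and Esam (0.78). Of the 36 other members, 20 had an r above 0.5, against 17.5% of all probe sets, and 13 had an r above 0.7, against 6.71%. At the other end were Angpt2 (-0.72) and Lyl1 (-0.55). The 4 members with an unadjusted p under 0.05 did not follow Cdh5 closely, with Vwf at -0.39, Robo4 at -0.16, Aplnr at 0.02 and Etv2 at 0.34. Over all 666 pairs of members the median r was 0.20. These are descriptions over 6 pools that share the same 2 genotypes and the same arrays.

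Markers of other tissues also differed between the knockout pools. Primitive red cells, which form in the yolk sac beside the first vessels, were represented by 10 measured genes. Only 1 of them, Klf1, was higher in knockouts at an unadjusted p of 0.05, where 5.97% of all probe sets were. Its log2 fold change was 0.26 (limma adjusted p = 0.398). The log2 of the summed level of the 10 genes was 8.95, 10.96 and 9.40 in knockouts, against 9.00, 8.70 and 8.99 in heterozygotes. The embryonic globins Hba-x and Hbb-bh1 carried this, with 7.02, 10.09 and 7.78 for Hba-x in knockouts, against 7.02, 6.18 and 6.99 in heterozygotes, and 4.73, 8.87 and 6.14 for Hbb-bh1 in knockouts, against 4.90, 4.41 and 5.43 in heterozygotes. Knockout replicate 2, the pool with the highest Cdh5, was thus also the one with the most globin signal. The summed levels did not run in parallel over all pools. Heterozygote replicate 2 had the highest endothelial sum, at 12.72 against 12.70 in knockout replicate 2, but the lowest blood sum, at 8.70. The endothelial sum weighs bright genes most, and Aplnr, the brightest member, had 10.02 in heterozygote replicate 2 and 9.64 in knockout replicate 2. By the median deviation of the members, knockout replicate 2 was the higher of these pools, at 0.07 against 0.02. Knockout replicate 3 had the lowest endothelial sum, at 12.55, with a blood sum of 9.40. At the low end of the list, Epb42, a red cell membrane protein, and Nfe2, an erythroid and megakaryocyte factor, differed by 0.01 and 0.02.

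The 12 genes of the yolk sac visceral endoderm had a log2 summed level of 13.10, 13.11 and 11.95 in knockouts, against 13.12, 12.88 and 13.07 in heterozygotes. None of the 12 passed an unadjusted p of 0.05. Afp, alpha-fetoprotein, had 8.65, 8.65 and 7.31 in knockouts, against 8.98, 8.37 and 8.77 in heterozygotes. Apom, an apolipoprotein, had 8.78, 9.01 and 7.35 in knockouts, against 9.08, 8.87 and 9.10 in heterozygotes. Knockout replicate 3, the pool with the lowest endothelial levels, was thus also the lowest for these endoderm genes. Hnf4a, a hepatocyte and endoderm factor, and Amn, an endocytic coreceptor, had the highest log2 fold changes of the list, at 0.00 and -0.04. The part of either list in the spread of the endothelial genes was not tested.

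Lists of cells that share endothelial genes had narrow ranges in their summed levels. For 9 macrophage genes, a cell type that also makes Stab1 and Lyve1, the log2 summed level ranged from 8.21 to 8.29 in knockouts and from 8.25 to 8.29 in heterozygotes. For 9 hematopoietic progenitor and platelet genes, cells that also make Vwf and Fli1, it ranged from 9.80 to 9.87 in knockouts and from 9.80 to 9.81 in heterozygotes. The 37 endothelial genes ranged from 12.55 to 12.70 in knockouts and from 12.66 to 12.72 in heterozygotes. Such sums mostly follow the brightest genes of a list. In the progenitor list these were Kit and Cd34, with log2 means of 8.20 and 8.30 in knockouts and 8.17 and 8.29 in heterozygotes. Its dimmest, Ptprc and Pf4, had 4.08 and 3.29 in knockouts and 3.98 and 3.21 in heterozygotes. The median level of the macrophage genes was 4.56, against 6.45 for all probe sets. The narrow ranges thus cannot show whether the amount of either cell type was alike between pools. The part of these cells in the levels of single members was not tested.

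**Figure D5:**
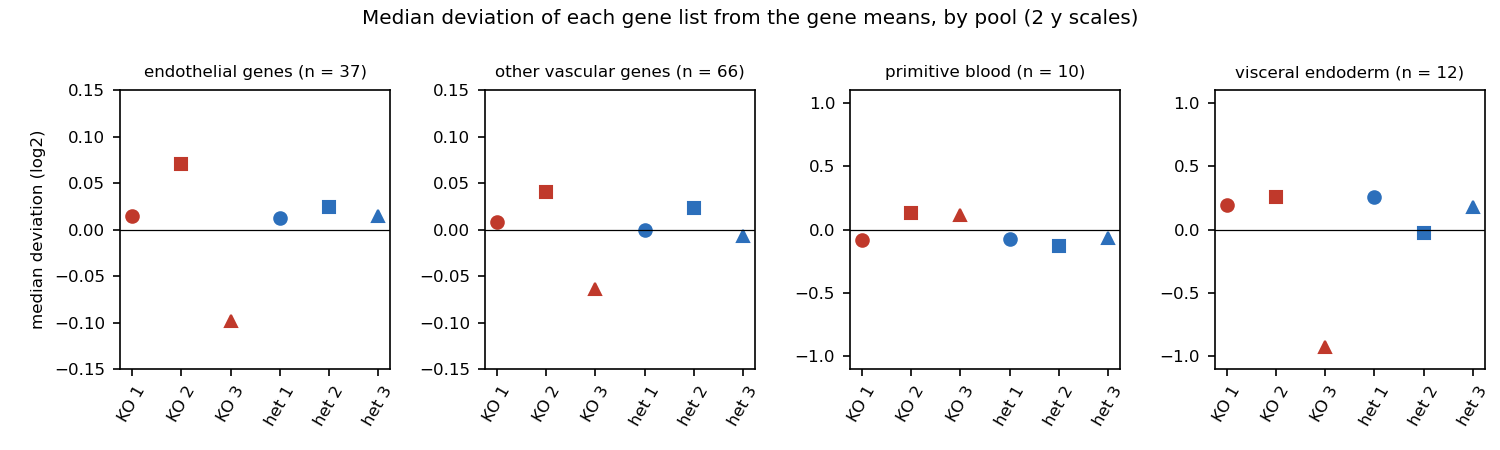
Median deviation of log2 intensity from each gene's mean over 6 pools, for the endothelial genes, the other vascular pathway genes, primitive blood and yolk sac visceral endoderm, in knockout pools (KO, red) left of heterozygote pools (het, blue). The 2 left panels have a narrower vertical scale than the 2 right ones. Knockout replicate 3 is lowest for the endothelial genes (-0.10), the other vascular genes (-0.06) and the visceral endoderm (-0.92).

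Beyond these members, 66 other genes of the vascular pathways were measured, covering ligands, Notch and BMP signalling, venous and lymphatic genes, transcription factors and matrix. None passed an adjusted p of 0.05 in limma, 3 were higher and 3 lower in knockouts at an unadjusted p of 0.05, where 5.97% of all probe sets were higher and 4.66% lower, and their median log2 fold change was 0.00. The 3 lower were 2 VEGF ligands or coreceptors of 8 and 1 angiopoietin ligand of 3. Pgf, placental growth factor, a ligand of Flt1, had 6.64, 6.71 and 6.58 in knockouts, against 6.90, 6.99 and 7.07 in heterozygotes. The groups did not overlap, and the log2 fold change was -0.35 ± 0.07 (SE, limma adjusted p = 0.356). Nrp1, the VEGF and semaphorin coreceptor, and Angpt1, the activating ligand of Tek, each had a log2 fold change of -0.21, with limma adjusted p-values of 0.416 and 0.426.

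The 3 higher ones were Gja5, Jag2 and Acvrl1. Gja5, the gap junction protein connexin 40 of arteries and atria, had 6.94, 6.85 and 6.75 in knockouts, against 6.42, 6.64 and 6.34 in heterozygotes. Every knockout lay above every heterozygote, at a log2 fold change of 0.38 ± 0.09 (SE, limma adjusted p = 0.380). Jag2, a Notch ligand, and Acvrl1 (ALK1), the endothelial BMP9 receptor that works with Eng, were each at 0.18, with limma adjusted p-values of 0.465 and 0.459. Gja5 and Jag2 were the 2 of 15 arterial and Notch genes past an unadjusted p of 0.05, and Acvrl1 the 1 of 10 BMP and TGF-beta genes. No gene of the 13 further transcription factors, the 13 integrin and matrix genes or the 4 venous and lymphatic genes did so.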

How the data were processed

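RNA from 6 pools of E8.5 heads was measured on Affymetrix mouse Gene 1.0 ST arrays. The authors processed the arrays by RMA in Affymetrix Power Tools (version not given in the sources used here), and the deposited intensity values, 35556 rows from 2.53 to 11741, are linear. RMA makes the arrays' distributions alike, so a shift common to most genes would not show. Log2 was taken here with no pseudocount and no further normalization. Of the rows, 21789 had 1 gene symbol (1621 had several and 12146 none), with 21698 symbols updated by gene number, and only these were fitted. Genotypes were compared with limma 3.58.1 in R 4.3.3 (lmFit and eBayes, 2 groups, Benjamini-Hochberg over all 21789 probe sets). A gene with several probe sets is given by the one with the highest mean. Between pools, R2 was 0.993 to 0.996, and no pool was a copy of another. The number of arrays limits the precision, with a median SE of 0.07 on the log2 scale. The labels do not say that the pools came from separate litters.

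The members, the gene lists and the tests were chosen with earlier results of these data known. Values in each pool are given for members with an unadjusted p under 0.05, the 4 highest and 4 lowest log2 fold changes, and Pecam1, Cdh5, Kdr, Tek, Tie1 and Etv2. Erg and Stab2 were added after their values were seen, because their groups did not overlap. Of the other vascular genes those with an unadjusted p under 0.05 were named, at most 6, and of the blood and visceral endoderm lists the 2 highest and 2 lowest. Klf1 was also named, as the 1 blood gene with an unadjusted p under 0.05. Lists for heart, mural, allantois, neural and mesenchyme cells were also measured. Alternatives tried were filters on dim rows, all rows, median, quantile and cyclic loess scaling, a trended robust prior, array weights, averaged probe sets, a replicate block and leaving out each pool. The model code was tested on simulated data.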

Additional observations from a re-analysis of the deposited data

How the results depend on the processing

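The number of endothelial genes at an adjusted p under 0.05 (limma) was 0 in the main analysis and in each of the 15 alternatives, with 4 of 37 at an unadjusted p under 0.05. The count higher in knockouts at an unadjusted p under 0.05 was 1 without the 7263 dimmest probe sets, which drops Robo4. It ranged from 2 to 4 when 1 pool was left out, against 1028 to 1383 of all 21789 probe sets. The count lower was 1 with all rows, under quantile and under cyclic loess normalization. It was 0 to 5 when 1 pool was left out, against 619 to 1077 of all 21789 probe sets. Non-overlapping groups counted 4 to 9 higher and 3 to 12 lower with 1 pool left out. The shares over all probe sets then rose as well, from 8.03% to between 12.4% and 14.9% higher, and from 9.03% to between 12.7% and 16% lower. The median log2 fold change ranged from -0.08 to 0.02 over the same omissions, and was -0.01 under both quantile and cyclic loess normalization. Vwf passed an unadjusted p of 0.05 in 15 of 15 alternatives, Robo4 in 14 of 14, Aplnr in 13 of 15 and Etv2 in 7 of 15. The cause of these shifts was not tested.

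Whether the replicate numbers pair the pools is not known. The deviations of same-numbered pools from their genotype means correlated at 0.000759, 0.106 and -0.0132, but with 3 pools per genotype this cannot exclude pairing. Both replicate 2 pools had low Xist, at 3.74 in knockouts and 4.22 in heterozygotes. With a replicate block the count lower at an unadjusted p under 0.05 was 1, since Etv2 had a p of 0.053 in limma, and the count higher was 3, since Ptprb had a p of 0.024. With this block 0 genes passed after adjustment.

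Log2 fold changes near 0 changed sign. Under quantile normalization they were 0.0064 for Emcn, 0.010 for Kdr, 0.0032 for Flt4, 0.037 for Fli1, 0.029 for S1pr1 and -0.0028 for Stab2. Under cyclic loess they were 0.0024 for Kdr, 0.036 for Fli1 and 0.015 for S1pr1. With array weights they were 0.0031 for Pecam1, 0.00085 for Flt4, 0.011 for Fli1 and 0.018 for S1pr1. With 1 pool left out, they ranged from -0.14 to 0.057 for Angpt2, -0.019 to 0.077 for Apln, -0.18 to 0.058 for Cdh5, -0.032 to 0.20 for Cldn5, -0.16 to 0.062 for Emcn, -0.14 to 0.046 for Esam, -0.074 to 0.052 for Fli1, -0.028 to 0.12 for Flt1, -0.036 to 0.066 for Flt4, -0.099 to 0.051 for Kdr, -0.15 to 0.046 for Pecam1, -0.042 to 0.16 for Plvap, -0.096 to 0.074 for S1pr1, -0.019 to 0.14 for Sox17, -0.024 to 0.12 for Sox18, -0.18 to 0.018 for Sox7, -0.086 to 0.047 for Stab1 and -0.0013 to 0.11 for Tie1. The arrays hold 3 pools per genotype, and Robo4 and Clec14a lie among the 7263 dimmest probe sets, where signal over background is least.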

Other observations

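Of the remaining marker lists, heart and endocardium had 3 of 12 genes lower in knockouts and none higher at an unadjusted p of 0.05, with a median log2 fold change of -0.07. Over all probe sets 5.97% were higher and 4.66% lower at this p. Head neural ectoderm had 1 of 11 higher and 3 lower (median -0.05), and mural and smooth muscle cells 1 of 10 higher and 1 lower (median -0.01). Allantois and extraembryonic mesoderm had 1 of 6 higher and none lower (median 0.12), hematopoietic progenitors and platelets 1 of 9 lower (median 0.07), and 7 head mesenchyme genes (median -0.03) and 9 macrophage genes (median -0.02) none in either direction. None of these genes passed an adjusted p of 0.05 in limma.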
